A study of Mus musculus with 8 samples.

Results

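Rxfp2 encodes the receptor for insulin-like peptide 3, and it was read together with 3 relatives: Rxfp1, the receptor for relaxin, Rln1, the mouse relaxin gene, and Insl3, the gene of insulin-like peptide 3. The 4 genes were taken by name from a table of 23337 genes. Rxfp2 was chosen by its fold change in mutant against control kidneys, among the lowest measured, and the others as its closest receptor and the peptides of both receptors. The levels of the 4 genes in that contrast are therefore given as a description, with no test.

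Relaxin and insulin-like peptide 3 are small peptide hormones built like insulin. Their receptors, RXFP1 and RXFP2, sit in the cell membrane, bind the peptide with a large outer domain of leucine-rich repeats, and act mainly through the stimulatory G protein, adenylyl cyclase, cyclic AMP and protein kinase A. In male embryos, insulin-like peptide 3 from the Leydig cells of the testis acts on RXFP2 in the gubernaculum, the ligament that guides the testis downward, and mice without either gene keep their testes high in the abdomen. Relaxin is known for remodelling connective tissue and for acting on blood vessels, the kidney included.

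The tissue was embryonic mouse kidney at E13.5, counted in days from the mating plug, on a mixed C57BL/6 background. The 4 mutant libraries came from kidneys labelled Foxd1Cre;Smo(flox/-). They carried Cre recombinase under Foxd1, a gene of the renal stromal progenitors, with 1 floxed and 1 null copy of Smo, which encodes the hedgehog signal transducer Smoothened. The 4 control libraries came from kidneys labelled Smo(flox/+), with 1 floxed and 1 intact copy of Smo and no Cre named. Both groups thus shared a floxed copy, and the mutants differed from controls by the Cre allele, by 1 Smo copy in every cell and by the loss of the other in Foxd1-lineage cells. The commonly used Foxd1Cre allele disrupts Foxd1 itself. Which allele was used is not said in the labels. They number the samples 1 to 4 without saying that each was a separate embryo or litter, or whether kidneys were pooled, so the p-values speak only to how far these samples scatter, which may be technical.

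Libraries held 10288191 to 13494079 reads in genes. Levels are normalised read counts. Each fold change is mutant over control, as log2 of the normalised count + 1, a scale on which low genes change by less than in truth. The kidney identity was plain: the ureteric genes Ret and Calb1 and the nephron progenitor genes Six2 and Eya1 were at 604 or more in every library. Smo averaged 537 ± 20.01 in mutants and 2241 ± 66.4 in controls (SD, n = 4 each), so every library matched its label. By Xist, a transcript of female cells, and Y-linked Ddx3y, mutant 2 and control 4 were male and the other 6 libraries female. Mutant 2 and control 2 carried the most skeletal muscle RNA, with summed counts over 7 muscle genes of 1661 and 3012, against 80.7 to 504 in the other libraries.

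The start regions of Rxfp2 and of both peptide genes are shown here because Rxfp2 was transcribed in every library while the peptide genes were near 0. Each sequence is 300 bases from RefSeq on GRCm38.p6, written 5′ to 3′ along the gene, with the 250 bases before the annotated start in lower case and the 50 bases from that start in capitals. They are chr5:150018425-150018724 on the plus strand for Rxfp2, chr8:71689002-71689301 on the plus strand for Insl3 and chr19:29334621-29334920 on the minus strand for Rln1. For Insl3 the GENCODE gene model used below begins upstream of the RefSeq start, within the lower-case bases.
Rxfp2: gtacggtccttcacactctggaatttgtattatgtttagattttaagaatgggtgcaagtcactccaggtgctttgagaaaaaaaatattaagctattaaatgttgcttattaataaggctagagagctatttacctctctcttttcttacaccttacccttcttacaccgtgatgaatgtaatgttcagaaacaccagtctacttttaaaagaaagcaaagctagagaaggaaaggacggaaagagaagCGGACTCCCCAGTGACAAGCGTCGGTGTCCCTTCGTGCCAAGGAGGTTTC
Insl3: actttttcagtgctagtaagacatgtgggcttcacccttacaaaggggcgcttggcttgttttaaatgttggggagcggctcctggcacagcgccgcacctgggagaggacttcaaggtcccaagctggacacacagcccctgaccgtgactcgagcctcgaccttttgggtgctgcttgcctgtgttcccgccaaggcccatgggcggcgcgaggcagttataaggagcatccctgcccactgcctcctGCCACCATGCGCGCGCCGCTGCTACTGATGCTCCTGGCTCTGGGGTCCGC
Rln1: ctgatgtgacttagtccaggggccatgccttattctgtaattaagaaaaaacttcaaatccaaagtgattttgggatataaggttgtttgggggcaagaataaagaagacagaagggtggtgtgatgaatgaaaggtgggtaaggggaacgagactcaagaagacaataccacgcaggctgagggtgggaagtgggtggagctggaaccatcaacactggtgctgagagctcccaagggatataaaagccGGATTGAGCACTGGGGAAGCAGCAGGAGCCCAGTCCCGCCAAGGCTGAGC

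These windows differ in composition. G and C make up 40.3% of the Rxfp2 window, 61.3% of the Insl3 window and 49.7% of the Rln1 window, against a median of 52.7% over 32851 mouse start regions of the same length. The Rxfp2 window holds 7 CG steps, the same as the median of 7, and the Insl3 window holds 16. On both strands, 4 motifs were searched: GACCACCCA, which binds the GLI factors of hedgehog signalling, AAGGTCA, which binds the steroidogenic factor NR5A1, TGACGTCA, the cyclic AMP response element, and TATAAA, the TATA box. The only match in the 3 windows was TATAAA in Rln1, 10 bases before its annotated start, so no motifs overlapped. Of all 32851 regions 0.253% hold the GLI motif, 4.72% the NR5A1 motif, 1.79% the cyclic AMP element and 13.6% TATAAA. A window without a match says only that these letters are not in it.

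Rxfp2 transcripts were present in every kidney and were lower in every mutant. Normalised counts were 31.5, 74.5, 48.2 and 73.03 in mutants 1 to 4, against 189, 151, 226 and 244 in controls 1 to 4. The groups did not overlap, and the lowest control was 2.02 times the highest mutant. The mean was 56.8 ± 20.8 in mutants and 202 ± 41.4 in controls (SD, n = 4 each), so mutants kept 28.1% of the control level, a log2 fold change of -1.87 (SE 0.253). The authors' deposited table gives the ratio of means as 0.281 and its log2 as -1.83. Of all tested genes 0.446% were called lower and 0.124% higher by limma, 3.00% had every mutant below every control, and 5.31% had groups that did not overlap in either direction. Rxfp2 is in the lower and the non-overlapping set, as the choice of the gene implies, and it is the 1 member of 4 that could be tested. It left the set called lower in 3 of 19 alternatives, given below. Where either group averaged 50 or more (11578 genes), only Smo had a lower fold change. In bulk kidney RNA, fewer cells with the transcript and less transcript in each cell cannot be told apart.

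**Figure D1:**
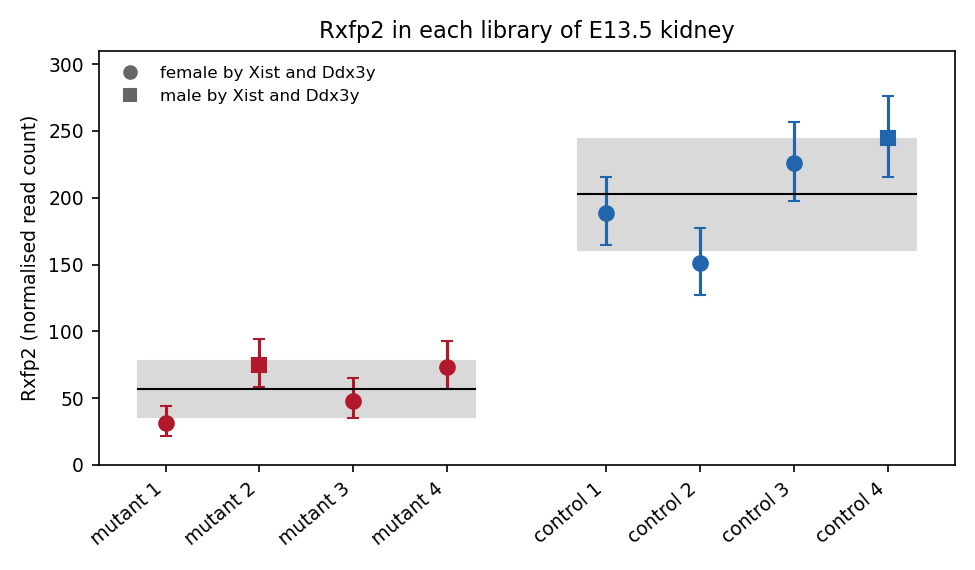
Normalised read count of Rxfp2 (vertical axis) in each of the 4 mutant and 4 control libraries, with 95% exact Poisson intervals of the reads as bars, the group mean as a line and 1 SD as a grey band; squares are the libraries that Xist and Ddx3y mark as male. Mutants lie between 31.5 and 74.5, all below the controls, which lie between 151 and 244.

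The reads behind these levels were few. Rxfp2 had 33, 70, 43 and 68 reads in mutants 1 to 4, against 222, 146, 233 and 260 reads in controls 1 to 4. Exact 95% Poisson intervals, which cover counting error only, reached 88.4 reads at most in mutants (mutant 2) and started at 123 reads in the lowest control (control 2). In all, 214 of 43879939 mutant reads and 861 of 48688003 control reads fell in the gene. By mean level, Rxfp2 stood above 17.9% of tested genes in mutants and above 37.3% in controls.

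Within each group, Rxfp2 varied by more than counting error. The highest mutant was 2.37 times the lowest and the highest control 1.62 times the lowest, and the coefficient of variation was 36.5% in mutants and 20.5% in controls. Against the counts expected from library size alone, chi-square per degree of freedom was 7.57 in mutants and 8.57 in controls. The medians over 1064 genes with a mean of 100 to 160 over all 8 libraries were 1.34 in mutants and 1.62 in controls. Rxfp2 lay above 96.1% of those genes in mutants and 92.6% in controls. Its mean over all 8 libraries was 130, but its group means, 56.8 in mutants and 202 in controls, lie outside that range. Within a group these genes were therefore not chosen to match its level, and the percentages are rough. In both groups the male library was the highest. Mutant 2 had 74.5, against 50.9 ± 20.9 in the 3 female mutants, and control 4 had 244, against 188.5 ± 37.4 in the 3 female controls (SD). With 1 male per group, sex was not tested, and mutant 4, a female, had 73.03.

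Rxfp2 spans bases 150018675 to 150082184 of chromosome 5 on the plus strand (GRCm38, GENCODE vM21). Its exons cover 5690 bases, of which 294 (5.17%) also lie in exons of Gm42557, an antisense RNA gene on the opposite strand. The deposited data carry the tag Unstr, which may stand for counting without strand, and without strand the reads of these 2 genes in those bases cannot be told apart.

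The peptide gene that would activate RXFP2 had almost no counted reads in these kidneys. Insl3 had 0, 1, 0 and 0 reads in mutants 1 to 4 and 0 reads in each of controls 1 to 4. The only read was in mutant 2, a male library. A count of 0 in all 4 controls allows up to 0.0616 RPM, reads in each 1000000 (3 counts over the group), while Rxfp2 stood at 17.7 RPM in the same libraries. Insl3 lies on chromosome 8 from 71689214 to 71690575, overlapping Jak3 on the same strand, and 404 of its 623 exonic bases (64.8%) are also annotated as exon of Jak3. Counting that drops reads shared by 2 genes would lower Insl3, and the labels do not say how shared reads were treated. The limit above therefore holds only for reads as they were counted. Jak3, a kinase of immune cells, was itself low, at 49.3 to 78.3 in mutants and 53.8 to 63.0 in controls.

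Relaxin and its receptor were not detectable above the limit of a count of 0 in any library. Rxfp1 had 0 reads in all 4 mutants, and 2, 0, 0 and 0 reads in controls 1 to 4. Rln1 had 1, 1, 0 and 1 reads in mutants 1 to 4, against 2, 0, 0 and 0 reads in controls 1 to 4. Every one of these values is under 3 counts, the limit that a count of 0 allows, so no fold change is given for Rxfp1, Rln1 or Insl3. Over all 92567942 reads the totals were 2 for Rxfp1, 5 for Rln1 and 1 for Insl3, against 1075 for Rxfp2. Rxfp1 lies on chromosome 3 from 79641611 to 79737880 and Rln1 on chromosome 19 from 29331170 to 29334670, both on the minus strand.

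The rest of the family gave the same division between a few transcribed genes and many near 0. Rxfp3, the receptor for relaxin 3, known chiefly from the brain, had 34.4, 37.3, 52.6 and 55.8 normalised counts in mutants 1 to 4, against 36.6, 36.2, 34.9 and 42.3 in controls 1 to 4. The groups overlapped, and limma gave a log2 fold change of 0.23 with SE 0.188 (adjusted p = 0.820). Insl6, a relative of relaxin known from male germ cells, averaged 10.1 ± 2.40 in mutants and 11.5 ± 1.81 in controls (SD, n = 4 each), with a log2 fold change of -0.19 (adjusted p = 0.919 by limma). Rxfp4, Rln3 and Insl5 had at most 2 reads in any library. Of the 5 family genes beside the members, 2 were tested and neither was called by limma.

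**Figure D2:**
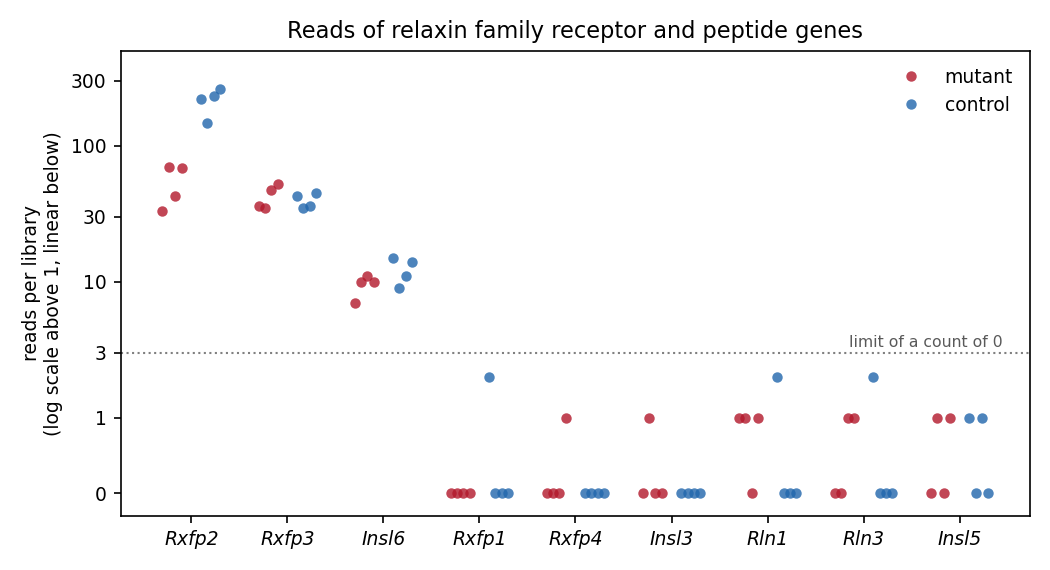
Reads per library (vertical axis, logarithmic above 1 and linear below) of the 9 relaxin family receptor and peptide genes, with 4 mutant libraries left of 4 control libraries for each gene. Rxfp2, Rxfp3 and Insl6 lie above the dotted limit of 3 reads in every library, and the other 6 genes have 0 to 2 reads.

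Per kilobase of exon, the order of these genes differed between the groups. The level of Rxfp2 was 9.98 ± 3.65 normalised counts per kilobase in mutants and 35.6 ± 7.28 in controls (SD, n = 4 each). Rxfp3 had 10.5 ± 2.52 per kilobase in mutants and 8.77 ± 0.77 in controls, and Insl6 had 14.3 ± 3.39 in mutants and 16.2 ± 2.56 in controls. Rxfp2 was thus the highest of the 3 in controls, while in mutants the levels of Rxfp2 and Rxfp3 lay within their spread. The exon set mattered for Rxfp2, whose longest transcript has 2836 bases. Per kilobase of that transcript its level was 20.03 in mutants and 71.4 in controls, above both other genes in either group.

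In 5 lists of genes of the pathway, of its relatives and of testicular descent, none was called by limma or edgeR, and 1, Akap12, was called by DESeq2. Of the 113 genes in these lists, 96 were tested, 51 of them in the list of G proteins, cyclic AMP enzymes and protein kinase A. Over all genes tested, limma called 0.570%, edgeR 0.577% and DESeq2 1.56%. At an unadjusted p under 0.05 there were 9 by limma (9.38%), 9 by edgeR and 6 by DESeq2, while 8.70% of all tested genes had such a p by limma, 8.76% by edgeR and 6.68% by DESeq2. The median log2 fold change of the 96 was -0.03, beside 0.0037 over all tested genes, and 58 of them were negative.

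The list of G proteins, cyclic AMP enzymes and protein kinase A genes had 51 tested genes, with a median log2 fold change of -0.04. Gnas, which encodes the stimulatory G protein subunit, stood at 12821 ± 539 in mutants and 13610 ± 900.0 in controls (log2 fold change -0.08, adjusted p = 0.701 by limma). Prkaca, the main catalytic subunit of protein kinase A, stood at 1624 ± 19.8 in mutants and 1666 ± 80.8 in controls (log2 fold change -0.04, adjusted p = 0.883 by limma). The groups overlapped for both genes. Gnas and Prkaca lie outside the naming rule and were chosen for their place in the pathway after their values had been seen.

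The smallest p in the 5 pathway lists was that of Akap12, a scaffold that ties protein kinase A to the membrane. Its counts were 3541, 3436, 3540 and 4383 in mutants 1 to 4, against 4883, 4648, 4876 and 4043 in controls 1 to 4. Mutant 4 lay above control 4, so the groups overlapped, and limma gave a log2 fold change of -0.31 with SE 0.0797 (adjusted p = 0.144). Akap12 was called by DESeq2 (adjusted p = 0.0106), and by limma without mutant 4 (adjusted p = 0.0209) or without control 4 (adjusted p = 0.0309), but not in the other 16 alternatives, whose adjusted p reached 0.665. Arrb1 encodes an arrestin, a protein that shuts off and internalises many receptors that act through G proteins. It averaged 574 ± 40.2 in mutants and 675 ± 64.9 in controls (log2 fold change -0.23, adjusted p = 0.293 by limma).

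Of 29 tested nitric oxide and matrix genes known to answer relaxin in adult tissues, none was called, and their median log2 fold change was -0.04. Timp2, an inhibitor of matrix metalloproteinases, had 1505 to 1678 in mutants and 1705 to 1866 in controls. Its groups did not overlap, at a log2 fold change of -0.16 (adjusted p = 0.200 by limma). Nos3, the nitric oxide synthase of endothelium, had 131 ± 14.0 in mutants and 154 ± 9.53 in controls (log2 fold change -0.24, adjusted p = 0.494 by limma), and its exons overlap those of Atg9b on the opposite strand. In all, 3 of the 96 list genes had every mutant below every control, close to the 3.00% of all tested genes.

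The leucine-rich repeat receptors closest to RXFP1 and RXFP2 in structure bind R-spondins or glycoprotein hormones. Of that list of 10 receptors and R-spondins, 6 were tested and none was called. Lgr4, an R-spondin receptor that strengthens Wnt signalling, stood at 1513 ± 128 in mutants and 1684 ± 118 in controls (log2 fold change -0.16, adjusted p = 0.507 by limma). Rspo1, a ligand of these receptors, stood at 525 ± 40.9 in mutants and 434 ± 81.8 in controls (log2 fold change 0.29, adjusted p = 0.491 by limma). Lgr5 (-0.04), Lgr6 (0.22), Rspo2 (-0.89) and Rspo3 (0.02) had log2 fold changes with adjusted p from 0.772 to 0.983 by limma. Rspo2 was as low as 8.28 ± 4.32 in mutants, against 18.7 ± 15.3 in controls. Its direction turned without controls 1 and 2 (log2 fold change 0.0557).

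Of 8 tested genes of gubernaculum development and testicular descent, none was called and the median log2 fold change was 0.03. Wt1, a transcription factor of the kidney and gonad, stood at 2110 ± 107 in mutants and 1965 ± 70.3 in controls (log2 fold change 0.10, adjusted p = 0.516 by limma), and Arid5b at 635 ± 32.2 in mutants and 580 ± 38.5 in controls (log2 fold change 0.13, adjusted p = 0.567 by limma).

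**Figure D3:**
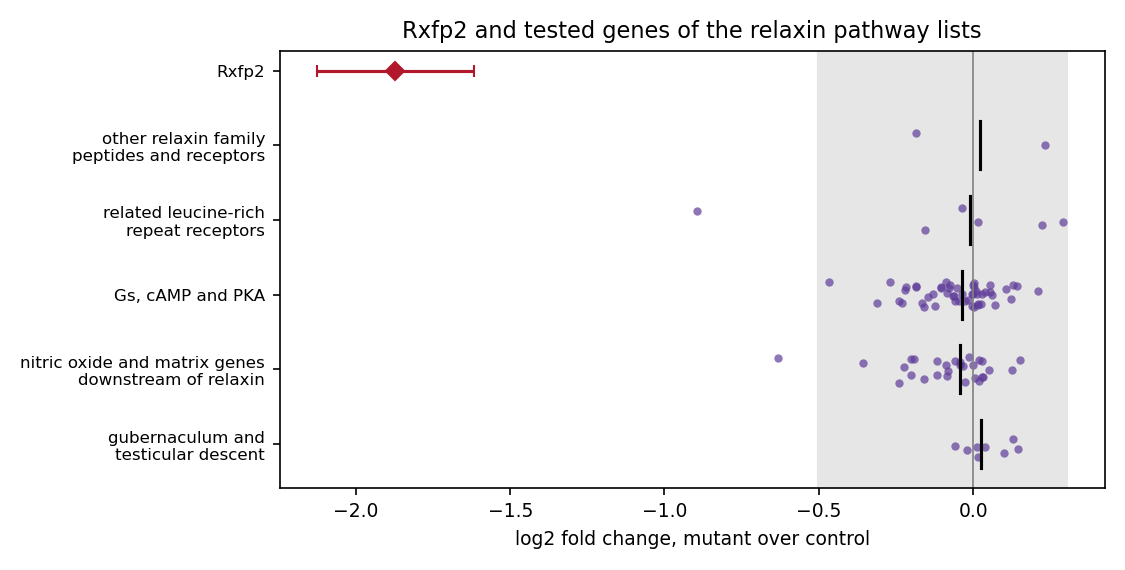
Log2 fold change of mutant over control (horizontal axis) for Rxfp2 (diamond, with its SE) and for each of the 96 tested genes of the 5 pathway lists (points, with the list median as a bar); the grey band holds the middle 95% of all tested genes. Rxfp2 lies at -1.87, and the list medians lie between -0.04 and 0.03.

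Markers of the gonads and adrenal were mixed, with several defining genes near 0 and others present. The Leydig cell enzyme gene Cyp17a1 had at most 1.06 normalised counts in any mutant and 0.94 in any control. Dmrt1, of Sertoli and germ cells, had at most 1.06 in mutants and 0 in every control, and the adrenal enzyme genes Cyp21a1 and Cyp11b1 had at most 1 read in any library. Over the 7 genes of the Leydig list, summed counts were 122 to 160 in mutants and 117 to 144 in controls. Most of that sum came from Star and Hsd3b6, which were at 28.0 or more in every library. On the Sertoli list Sox9, also a gene of the ureteric epithelium, stood at 414 to 521 in mutants and 415 to 464 in controls, and Aard at 45.1 to 65.9 in mutants and 38.2 to 49.4 in controls. On the adrenal list, which shares Star, the corticotropin receptor gene Mc2r stood at 47.9 to 59.07 in mutants and 32.9 to 54.8 in controls. None of these 5 genes was called by limma, and their part in the level of Rxfp2 was not tested.

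Some genes of the cortical stroma, the outer mesenchyme that expresses Foxd1, were lower in mutants as well. Of 10 genes listed for that layer, 2 were called lower by limma, Foxd1 (adjusted p = 0.0251) and Smoc2 (adjusted p = 0.0325), none higher, where 0.446% of all tested genes were called lower and 0.124% higher. At an unadjusted p under 0.05 there were 7 of the 10, beside 8.70% of all tested genes, and the median log2 fold change was -0.25. The list was chosen with earlier results of these data known, so these shares are a description and no independent support. Foxd1 lost its call without mutant 1, 2 or 3, control 3 or both libraries numbered 2 (adjusted p 0.0715 to 0.124), and Smoc2, a matricellular protein gene, without mutant 1 or 3, control 1, 2 or 3, both libraries numbered 2 or controls 1 and 2 (adjusted p 0.0847 to 0.183). Foxd1 stood at 484, 469, 682 and 738 in mutants 1 to 4, against 1038, 1138, 1694 and 2039 in controls 1 to 4. Mutants carry an allele that may itself disrupt Foxd1. For every 100 counts of Foxd1 there were 6.51, 15.9, 7.06 and 9.90 counts of Rxfp2 in mutants 1 to 4, against 18.2, 13.3, 13.3 and 11.99 in controls 1 to 4. On that scale mutant 2 lay above controls 2, 3 and 4, so the groups overlapped. The other 9 stroma genes summed to 22825 to 28285 in mutants and 29148 to 32480 in controls. Per 1000 counts of that sum, Rxfp2 had 1.38, 3.10, 1.79 and 2.58 counts in mutants 1 to 4, against 6.15, 4.65, 7.07 and 8.39 in controls 1 to 4, with no overlap. The part of these genes in the level of Rxfp2 was not tested.

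**Figure D4:**
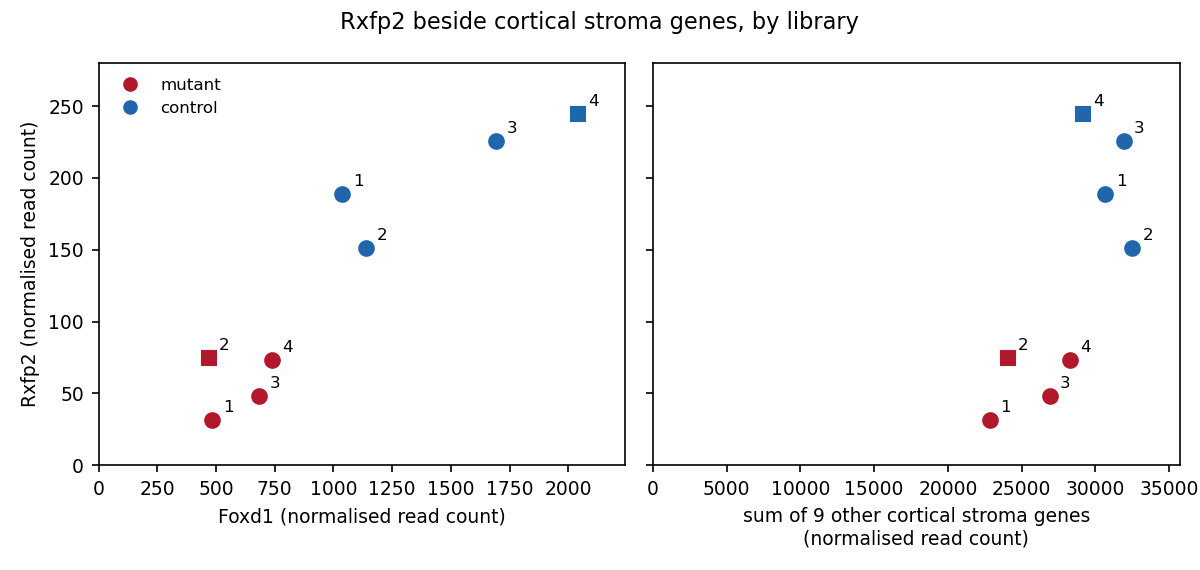
Normalised read count of Rxfp2 (vertical axis) against that of Foxd1 (left) and against the sum of the 9 other cortical stroma genes (right) in 4 mutant and 4 control libraries, numbered by sample, with squares for male libraries. Control 4 has the highest Foxd1 (2039) and Rxfp2 (244), while its stroma sum without Foxd1 (29148) is the lowest of the controls.

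Skeletal muscle RNA did not order the libraries as Rxfp2 did. Mutant 2, with a muscle sum of 1661, had the highest Rxfp2 of the mutants, and control 2, with a muscle sum of 3012, had the lowest of the controls. All 7 muscle genes had negative fold changes and none was called by limma. Without both libraries numbered 2, the log2 fold change of Rxfp2 was -2.16 (SE 0.261).

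The genes whose levels ran most like those of Rxfp2 were found by Pearson's r of log2 values over the 8 libraries, taking the 11460 genes that averaged 50 or more. The difference between the groups is part of this r, so it gives no independent support and carries no p. The highest were Zer1 (r = 0.984), C430049B03Rik (0.980), Mmp15 (0.978), Fn1 (0.971), Kirrel (0.965), Hic1 (0.965), Dock11 (0.962) and Runx1t1 (0.949). Zer1 encodes a substrate receptor of an E3 ubiquitin ligase, Mmp15 a membrane-bound metalloproteinase, Fn1 fibronectin and Hic1 a transcriptional repressor. All 8 were lower in mutants on average, by less than Rxfp2, with log2 fold changes from -0.59 for Runx1t1 to -0.14 for Zer1. Zer1 had 348 to 380 in mutants and 392 to 412 in controls, and like Rxfp2 it was lowest in mutant 1 among mutants and in control 2 among controls. The lowest r was that of Fam107a (-0.963), with 252 ± 53.8 in mutants and 169 ± 11.8 in controls, followed by Cited2 (-0.956) and Ctdnep1 (-0.950). Foxd1 came in place 65 (r = 0.897), Ntn1, the netrin 1 gene, in place 66 (0.896), and Smo in place 51 (0.908).

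**Figure D5:**
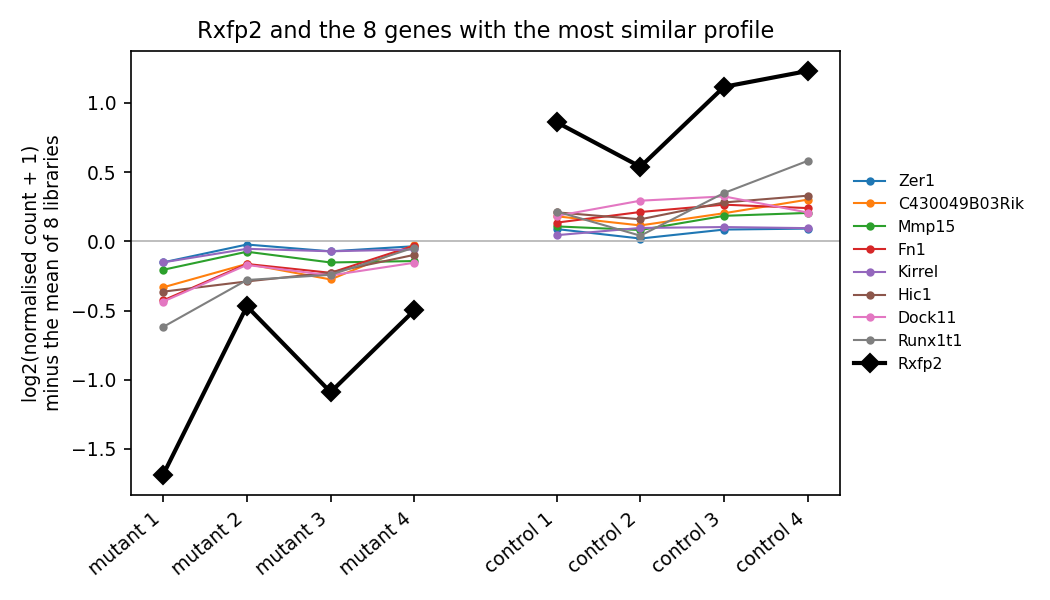
Log2 of normalised count + 1 minus the mean over the 8 libraries (vertical axis) in each library for Rxfp2 (black diamonds) and the 8 genes with the highest Pearson's r with it (coloured points); lines only join points of a gene within a group, since replicates have no order. All 8 genes share the low point of Rxfp2 in mutant 1, and their spread is smaller than that of Rxfp2.

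With each group's mean taken out, other genes came first. The highest r of the deviations belonged to Fam193a (0.977), Dgkq (0.977), Dbn1 (0.972), Fance (0.968) and Scamp5 (0.958). Their log2 fold changes of mutant over control lay between -0.22 and 0.10, and over all 8 libraries Fam193a had r = -0.123 with Rxfp2. Of the 8 genes above, Zer1 kept the highest value (0.957). Foxd1 had 0.472, in place 2003 of 11460, while Smo had -0.680, in place 10828, and Ptch1 -0.626. Six2, a transcription factor of nephron progenitors, had r = -0.605 over all libraries and 0.777 within groups. Each of these values rests on 8 libraries that share their size factors. The highest were picked from 11460 genes, so values of their size can arise without any link to Rxfp2, which was not tested.

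The genes beside Rxfp2 on chromosome 5 did not pass the test. The nearest tested neighbour was Fry, a large scaffold protein gene that begins 36.1 kb after the end of Rxfp2, by RefSeq coordinates, whose end of Rxfp2 differs from the GENCODE one above. It stood at 80.6 ± 7.02 in mutants and 102 ± 7.44 in controls (SD, n = 4 each), and limma gave a log2 fold change of -0.34 with SE 0.109 (adjusted p = 0.300). Every mutant value of Fry (73.5 to 87.0) was below every control value (96.8 to 113), as in 3.00% of all tested genes. Brca2 (-0.02) and N4bp2l1 (-0.01) followed on that side. On the other side lay B3galtl (-0.09), Hsph1 (-0.06) and Alox5ap (0.20), from 256 to 731 kb away. Adjusted p for these 5 genes lay between 0.701 and 0.995 by limma.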

How the data were processed

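RNA was isolated from E13.5 kidneys and sequenced from 500 ng of input after poly(A) selection, using the TruSeq kit of Illumina, per the labels' protocols. The submitters' processing notes name TopHat2 2.0.12, HTSeq and DESeq2 1.4.5 with mm10 (GRCm38). The gene annotation and the treatment of shared reads are not given in the sources used here.

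The authors deposited per-library signal values that are read counts scaled by a size factor, 1 for each library. All values (100%) were whole multiples of 1 step per library within 0.01 read, so whole reads were recovered. The deposited table also holds mean signal, the fold change as a ratio, the log2 ratio and p-values, of which the ratio and log2 ratio are given for Rxfp2 alone.

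The 13692 genes averaging 10 or more were tested on log2(value + 1) in R 4.3.3 (limma 3.58.1, intensity trend, two-sided), with Benjamini-Hochberg adjustment at 0.05. edgeR 4.0.16 (quasi-likelihood) and DESeq2 1.42.0 on recovered reads were alternatives. The steps were tested on simulated data. Library totals (10288191 to 13494079 reads) bound the counting error. No library was a duplicate: chi-square per degree of freedom between libraries of a group was 2.90 to 10.98.

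The members and lists were chosen with earlier results of these data known. Genes named are the members, Smo, Foxd1, Gli1 and Ptch1, called list genes and the 2 smallest p of each pathway list, all tested genes of both receptor lists, the genes most and least like Rxfp2, and 3 tested neighbours on each side. Gli1 fell (log2 fold change -0.68, adjusted p = 0.0102 by limma, with exons overlapping Arhgap9), a call lost without control 3 (adjusted p = 0.0517) or without both libraries numbered 2 (adjusted p = 0.0686), and Ptch1 had -0.48 (adjusted p = 0.164), and was called without control 4 (adjusted p = 0.0348), by DESeq2 (adjusted p = 0.0106) and with a replicate block (adjusted p = 0.0372). Other markers are given for their levels. Symbols were matched to RefSeq GRCm38.p6 for 98.8% of genes. Lengths and overlaps came from GENCODE vM21. RefSeq start regions were found for 3 of the 4 members. Marker lists not described above were also summed per library. In mutants against controls, these sums ranged from 7802 to 8436 against 6409 to 7379 (nephron progenitors, where Itga8 was called higher by limma, at 2049 ± 86.7 against 1648 ± 79.0, and not without mutant 2, without mutant 3 or without both libraries numbered 2, with adjusted p 0.0519, 0.0574 and 0.139), 6535 to 8463 against 5848 to 7209 (ureteric epithelium), 481 to 591 against 474 to 522 (Sertoli), 126 to 141 against 102 to 132 (adrenal cortex), 10.7 to 136 against 10.3 to 699 (liver), 164 to 310.4 against 271 to 441 (macrophages), 3273 to 4153 against 3767 to 4398 (endothelium) and 264 to 319 against 247 to 271 (neural). Figures used matplotlib 3.10.9.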

Additional observations from a re-analysis of the deposited data

Results flagged for a closer look

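Each group of 4 libraries was checked for 1 library far from the other 3, for Rxfp2 and the other named genes. Of 86 groups, 5 stood out, where chance gives about 4.3, and no group of Rxfp2 was among them. Akap12 was 4383 in mutant 4, against 3436 to 3541 in the other mutants. Timp2 was 1505 in mutant 1, against 1653 to 1678 in the other mutants, and 1705 in control 4, against 1839 to 1866 in the other controls. Zer1 was 392 in control 2, against 410 to 412 in the other controls. Kirrel was 1570.2 in control 1, against 1627 to 1635 in the other controls.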

How the results depend on the processing

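The log2 fold change of Rxfp2 kept its direction and stayed within 1 SD between libraries in all 19 alternatives (in the block and sex fits by construction, as both are balanced), from -2.16 without both libraries numbered 2 to -1.62 without mutant 1. Rxfp2 was in the set called lower in 16 of the 19. It was not in that set without mutant 3, without control 3 or without both libraries numbered 2. Because the gene was chosen by this contrast, these counts only describe it and give no support. Low reads allow no fold change of Rxfp1, Rln1 or Insl3 under any setting.

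Counts of genes called moved most. Against 61 lower and 17 higher, DESeq2 called 160 lower and 54 higher, and the replicate block 170 lower and 62 higher. There was 1 lower and 1 higher without both libraries numbered 2, and 23 lower and 6 higher without controls 1 and 2. Leaving out 1 library gave 13 lower (without control 3) to 130 lower (without control 4), and 3 higher (without mutant 2 or mutant 3) to 55 higher (without control 4). The block rests on sample numbers that the labels do not say pair libraries. Deviations of equal-numbered libraries correlated at 0.325, 0.287, 0.294 and 0.0635 over genes, against -0.325 to 0.154 for unequal numbers. Libraries numbered 1, 2 and 3 each correlated best with the equal-numbered library of the other group, while control 4 correlated best with mutant 3. The main fit takes no account of such sharing, and its source was not tested. With the replicate block the log2 fold change of Rxfp2 was -1.87, which the balanced numbers fix, so that only the SE could move (0.207). Pathway genes called were 0 with the block and 1 (Akap12) under DESeq2, and 0 to 1 with 1 library left out.

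Of 792 values of 42 named genes, 714 kept direction and side of the threshold, 34 lost and 18 gained a call, and 26 changed sign, all in 8 uncalled genes. Without both libraries numbered 2, log2 fold changes turned to 0.0055 for Brca2 and 0.0854 for N4bp2l1. Without controls 1 and 2 they turned to 0.13 for Lgr5, 0.0446 for N4bp2l1, 0.0557 for Rspo2 and -0.0897 for Rspo3. With 1 library left out, values ranged from -0.0301 to 0.40 for Alox5ap, -0.0749 to 0.0421 for Brca2, -0.0709 to 0.0592 for Dgkq, -0.14 to 0.00855 for Hsph1, -0.16 to 0.0557 for Lgr5, -0.18 to 0.11 for N4bp2l1 and -0.0743 to 0.10 for Rspo3. The causes were not tested, and depth limits Insl3, Rxfp1 and Rln1, whose reads lie under the limit of a count of 0.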
